A study of Mus musculus with 9 samples.

Results

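The microRNAs miR-21, miR-22, miR-29b, miR-31, miR-34a, miR-221 and miR-222 were followed across mouse embryonic stem (ES) cells with and without the gene Dgcr8 and across the fibroblasts on which such cells are grown. They were taken by number from a microarray of 206 probes, of which 195 were matched to a mouse microRNA gene. Of the 9 names looked for, miR-29a and miR-29c had no probe in the table analysed here, so the set holds 7 probes, 1 for each microRNA (miR21, miR22, miR29b, miR31, miR34a, miR221 and miR222 in the table). The set was put together because its microRNAs were high in the fibroblasts, and the fibroblast values are therefore given as a description with no test.

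Each of the 9 arrays carried the RNA of 1 group in 1 dye and RNA of wild-type V6.5 ES cells in the other, so that every value is a ratio over wild type. The groups were V6.5 ES cells heterozygous for a Dgcr8 knockout (3 arrays), homozygous knockout ES cells of line 1 (2 arrays) and of line 2 (2 arrays), and irradiated mouse embryonic fibroblasts used as feeder layer (2 arrays). All ES cells had been grown on feeders and passaged off them before RNA was taken, per the series text, and each knockout line was hybridised in duplicate. How the alleles were made, and whether the feeder arrays came from separate cultures, is not given in the sources used here. In replicate 2 of every group the dyes were swapped.

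MicroRNAs are cut from hairpins in longer transcripts. In the nucleus the RNase Drosha and its RNA-binding partner DGCR8 release the hairpin, and Dicer then trims it to the mature strand of about the length of a short oligonucleotide, whose bases 2 to 8 (the seed) pair with target mRNAs. Mouse ES cells make mainly microRNAs of the mir-290 cluster, while fibroblasts and other differentiated cells make miR-21, the miR-29 family and miR-221 with miR-222 in abundance. MiR-21 represses the tumour suppressor mRNA Pdcd4, miR-29b represses collagen and other matrix mRNAs, miR-221 and miR-222 repress the cell cycle inhibitor Cdkn1b, and miR-34a is induced by the tumour suppressor Trp53.

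The mature strands are shown because they are what the array reads and because the seed sorts the set into families. All 7 microRNAs matched RefSeq entries on build GRCm38.p6. The probe names do not give the hairpin arm, and the arm known as the dominant one was taken. Sequences run 5′ to 3′ with the seed in capitals.
miR-21 (miR-21a-5p): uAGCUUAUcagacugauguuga
miR-22 (miR-22-3p): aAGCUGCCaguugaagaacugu
miR-29b (miR-29b-3p): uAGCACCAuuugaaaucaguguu
miR-31 (miR-31-5p): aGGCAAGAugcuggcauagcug
miR-34a (miR-34a-5p): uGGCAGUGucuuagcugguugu
miR-221 (miR-221-3p): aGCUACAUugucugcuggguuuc
miR-222 (miR-222-3p): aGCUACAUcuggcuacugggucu

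The 7 strands carry 6 seeds, since miR-221 and miR-222 share theirs. These 2 strands were identical at all of their first 8 bases and at 11 of 23 positions in all, counted from the 5′ end. The array also had a probe for miR-34c, a family relative of miR-34a, whose hairpin in the RefSeq table holds the letters of the miR-34a seed 1 time. It had values on 2 arrays, -3.24 on replicate 2 of line 1 and 4.96 on replicate 2 of the feeders. The GC content of the strands ran from 34.8% in miR-29b to 54.5% in miR-31.

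The mature strands lie in the mouse genome as follows. MiR-21 lies at chr11:86584120-86584141 on the minus strand, inside the protein-coding gene Vmp1, and miR-22 at chr11:75463772-75463793 on the plus strand, inside the long non-coding gene Mir22hg. MiR-29b has 2 genes that give the same strand, at chr6:31063025-31063047 (minus) and, inside the long non-coding gene A330023F24Rik, at chr1:195037091-195037113 (plus). MiR-31 lies at chr4:88910614-88910635 (minus) inside the long non-coding gene Gm49890, and miR-34a at chr4:150068473-150068494 (plus). MiR-221, at chrX:19146307-19146329 (minus), and miR-222, at chrX:19146901-19146923 (minus), come from hairpins that are 504 bases apart. No other annotated gene contained the hairpins of miR-34a, miR-221, miR-222 or the chromosome 6 copy of miR-29b. The hairpins of miR-21 and miR-31, the most reduced member in the knockout and the one with the most even values, are printed as the whole annotated stem-loops, which hold flanking bases beside the hairpin that Drosha and DGCR8 release, with the mature strand in capitals.
Mir21a hairpin: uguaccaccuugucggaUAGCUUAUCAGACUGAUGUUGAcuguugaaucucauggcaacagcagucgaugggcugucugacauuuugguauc
Mir31 hairpin: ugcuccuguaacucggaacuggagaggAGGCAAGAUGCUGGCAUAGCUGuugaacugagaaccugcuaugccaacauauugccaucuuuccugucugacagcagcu

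Ratios are given on the log2 scale, with own RNA over wild type, on the scale that the authors set with added control RNAs. The direction is likely rather than stated, from the series text that names wild type as the reference. Of the 63 values possible for the set, 48 were present, and 939 of 1755 for all mouse probes. Only miR-21 and miR-31 had values on all 9 arrays. Replicate 1 of line 1 held 3 of the 7 microRNAs (miR-21, miR-22 and miR-31), and replicate 2 of line 1 and replicate 2 of the feeders held all 7. The ES cell microRNAs were low on the feeder arrays, with the 8 probes of the mir-290 cluster between -8.05 and -7.51 on replicate 1 and between -7.85 and -3.82 on replicate 2. Of 12 probes for other fibroblast and mesenchymal microRNAs (miR-23a, miR-23b, miR-24, miR-27a, miR-143, miR-145, miR-152, miR-199a and miR-214), all had a mean feeder ratio above 0, from 2.19 to 5.88.

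In the feeders all 7 microRNAs were above the wild-type ES level on every array that measured them, on the deposited scale, but the 2 feeder arrays differed in how far. After each array was centred on its median probe their values were 2.54 (miR-31) or higher on replicate 1 and ran from -0.35 to 2.91 on replicate 2, where miR-21 was the one below 0, and the median of the 7 means moved from 3.55 to 2.40. MiR-221 had feeder ratios of 5.34 on replicate 1 and 3.68 on replicate 2, a 40.5-fold and a 12.8-fold excess. MiR-222 had 4.83 and 4.06, or 28.4-fold and 16.7-fold. By mean this pair from neighbouring hairpins was the highest of the set (4.51 and 4.45). The pair was also highest on replicate 2, while on replicate 1 miR-222 lay below miR-21 (5.20), miR-22 (5.14) and miR-29b (5.07). MiR-29b, which restrains matrix genes, had 5.07 and 3.16, or 33.6-fold and 8.93-fold.

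MiR-31, a microRNA studied in cell adhesion and invasion, had feeder ratios of 3.88 and 3.10, or 14.7-fold and 8.56-fold. MiR-34a was measured on feeder replicate 2 alone, at 3.55 or 11.7-fold. MiR-22 had 5.14 and 1.95, or 35.3-fold and 3.87-fold. MiR-21 had 5.20 and 0.81, or 36.8-fold and 1.75-fold, so that its excess was large on 1 feeder array and under 2-fold on the other.

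Replicate 1 lay above replicate 2 for all 6 members with both values, by 0.77 for miR-222, 0.78 for miR-31, 1.66 for miR-221, 1.91 for miR-29b, 3.19 for miR-22 and 4.39 for miR-21. Replicate 1 was the higher one for 76.7% of 90 mouse probes with both values (median difference 0.69), and the difference of miR-21 was the largest of the 90. By mean the order was miR-221, miR-222, miR-29b, miR-34a, miR-22, miR-31 and miR-21 (3.00 ± 3.11, SD, n = 2 arrays). The place of miR-34a rests on replicate 2 alone, where its 3.55 lay above the 3.16 of miR-29b and below the 3.68 of miR-221. No neighbours with both values differed in that order by more than the spread between the feeder arrays. Of the 6 with both values, 5 were above 2-fold on both arrays, where 45.6% of the 90 probes were, a count that the choice of the set used.

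**Figure D1:**
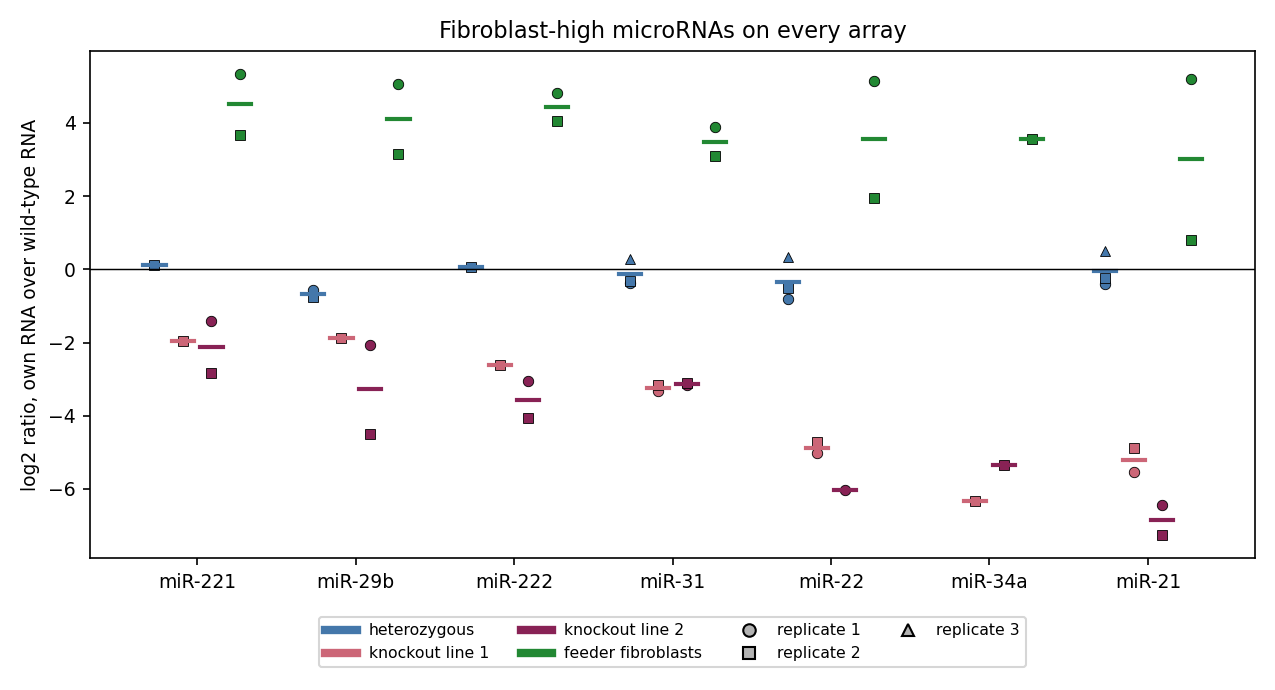
Log2 ratio over wild type (vertical axis) for each of the 7 microRNAs on every array with a value; colours mark the group, symbols the replicate number and short bars the mean of the arrays shown. Feeder values lie between 0.81 and 5.34, heterozygous values between -0.82 and 0.49 and knockout values between -7.27 and -1.41, on the deposited scale.

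**Figure D2:**
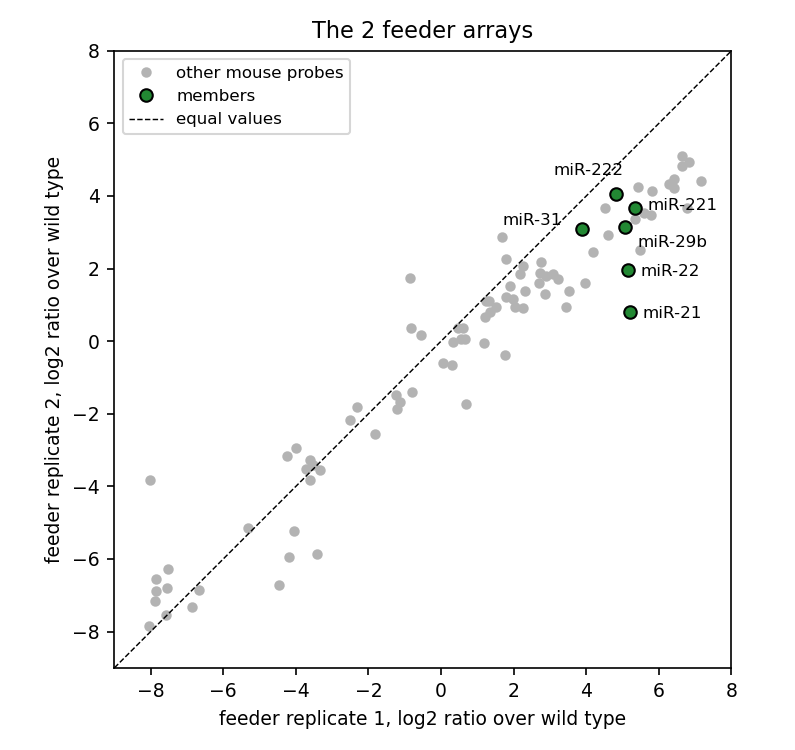
Log2 ratio over wild type on feeder replicate 1 (horizontal axis) against replicate 2 (vertical axis) for the 90 mouse probes with both values, with 6 members named and a dashed line of equal values. All 6 lie below the line, miR-222 by 0.77 and miR-21 by 4.39.

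The ratios were also set the other way round, on the deposited scale and with the feeder values read as log10 ratios. Wild-type ES cells then held between 2.47% (miR-221) and 6.79% (miR-31) of the feeder signal by feeder replicate 1. By feeder replicate 2 they held between 5.98% (miR-222) and 57.1% (miR-21). The comparison of knockout with wild-type cells asked how far this signal in ES cell RNA differed without DGCR8. Whether feeder RNA was part of the wild-type signal was not tested. In bulk RNA, fewer cells that make a microRNA and less of it per cell cannot be told apart.

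In cells without either Dgcr8 copy the whole set lay below wild type, some members far more than others. MiR-221, miR-29b, miR-222 and miR-31 were 4.10-fold to 9.12-fold lower, while miR-22, miR-34a and miR-21 were 43.9-fold to 65.7-fold lower (means of the 2 lines), a grouping made after the values were seen. All 22 knockout values of the set were below 0, as all values were for 92.4% of 131 mouse probes. After each array was centred on its median probe, which moved the median of all tested microRNAs from -5.98 to -0.34, the 4 less reduced microRNAs lay above 0 (2.41 to 3.46) and the other 3 between -0.39 and -0.07.

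MiR-31 had knockout ratios of -3.32 and -3.17 in line 1 and of -3.17 and -3.09 in line 2. The 4 arrays thus spanned 0.23, the narrowest range of the members measured on 3 or more knockout arrays. Its mean was -3.19 ± 0.08 (SD, n = 2 lines; limma, adjusted p = 1.68e-05), and after centring it was called higher, at 2.46.

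MiR-29b had -1.89 on the single line 1 array that measured it, and -2.07 and -4.49 in line 2. Replicate 2 of line 2 lay apart from the other values, which made this the widest range of the set (2.60). The mean was -2.58 ± 0.98 (n = 2 lines; limma, adjusted p = 0.00119), and after centring it was called higher, at 2.92.

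MiR-21 had -5.55 and -4.89 in line 1 and -6.45 and -7.27 in line 2. Its mean was -6.04 ± 1.16 (n = 2 lines; limma, adjusted p = 1.4e-05), and after centring it was at -0.39 and not called (adjusted p = 0.522). MiR-22, described as a repressor of Tet2, had -5.02 and -4.72 in line 1 and -6.04 on the 1 array of line 2 that measured it. Its mean was -5.46 ± 0.83 (n = 2 lines; limma, adjusted p = 1.4e-05), and after centring it was at -0.07 (adjusted p = 0.913).

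These 4 microRNAs were the members with values on 2 or more heterozygous arrays, in both lines and in feeders, which the test required. All 4 were called lower (limma, adjusted p under 0.05 over 87 microRNAs), where 89.7% of the 87 were. The p-values rest on a spread shared with the heterozygous arrays, while the SDs above are between the 2 lines alone. MiR-21 and miR-22 stood near the middle of the 87, at ranks 43 and 55 from the lowest ratio. MiR-31 and miR-29b stood at ranks 72 and 75. The 95% intervals were -7.09 to -4.98 for miR-21 and -6.41 to -4.50 for miR-22, against -3.77 to -2.61 for miR-31 and -3.54 to -1.62 for miR-29b. The intervals of the first pair did not overlap those of the second, and the difference between microRNAs was not tested itself.

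The other 3 members had too few heterozygous values for that test. MiR-221 had knockout ratios of -1.95 (line 1) and of -1.41 and -2.83 (line 2), a mean of -2.04 ± 0.12 over lines, the smallest loss of the set. MiR-222, with the same seed, had -2.61, and -3.04 and -4.07, a mean of -3.09 ± 0.67. MiR-222 lay below miR-221 on each of the 3 knockout arrays that measured both, by 0.66, 1.63 and 1.24.

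MiR-34a had 1 value a line, -6.33 in line 1 and -5.35 in line 2. Its mean of -5.84 ± 0.69 put it with miR-21 and miR-22. Without a filter on missing values all 7 members were called lower (limma, adjusted p between 3.54e-05 and 0.00296, 113 microRNAs), where 88.5% of the 113 were, and the 3 members just described then stood at ranks 100 (miR-221), 92 (miR-222) and 48 (miR-34a). After centring miR-221 and miR-222 were at 3.46 and 2.41 and miR-34a at -0.09.

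Of the 7 members 3 were reduced more than 10-fold, and 79.6% of the 113 microRNAs with values in both lines were. The median of all 7 was -3.19 and that of the 113 was -5.58. Among 26 other microRNAs with values in both lines that were above 2-fold on both feeder arrays, the knockout median was -5.17 (range -7.79 to 0.48) and 18 were reduced more than 10-fold. These counts describe sets chosen by their feeder values and were not tested.

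**Figure D3:**
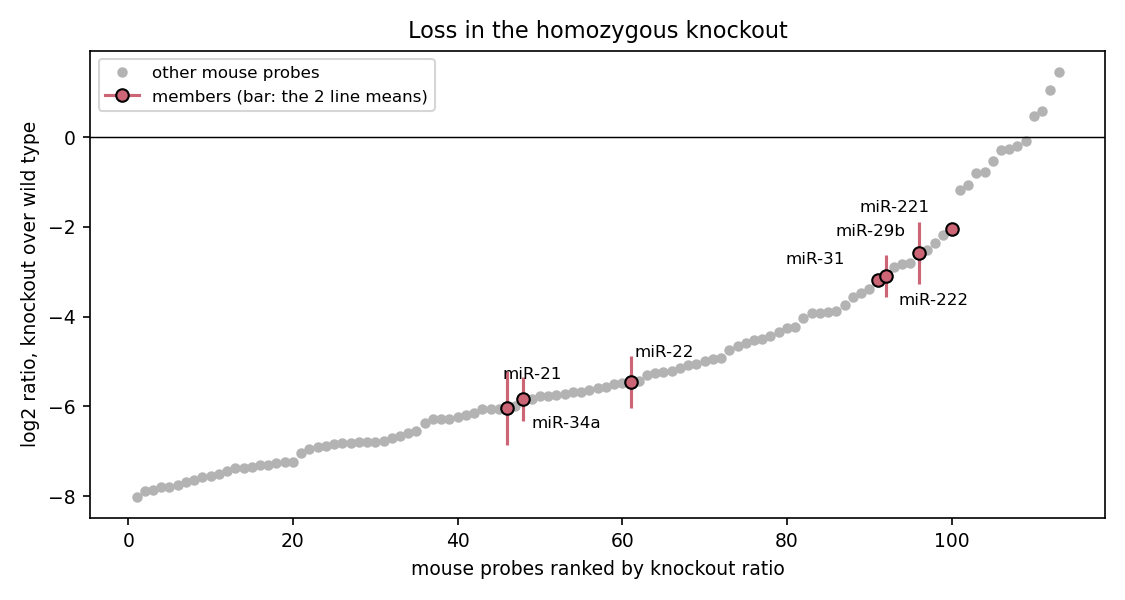
Knockout ratio (log2 over wild type, mean of the 2 lines, vertical axis) of the 113 mouse probes with values in both lines, ranked from lowest to highest; members are coloured, with a bar between their 2 line means. MiR-21, miR-34a and miR-22 lie at ranks 46, 48 and 61, and miR-31, miR-222, miR-29b and miR-221 at ranks 91, 92, 96 and 100, where all 4 lie above 0 after centring.

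On each of the 4 knockout arrays the less reduced members it measured lay above the more reduced ones, although several members lay lower in line 2. The grouping was formed from the means of these same arrays, so this order lends it no separate support. On replicate 2 of line 1, which measured all 7, the order from the highest ratio was miR-29b, miR-221, miR-222, miR-31, miR-22, miR-21 and miR-34a. On replicate 1 of line 2 it was miR-221, miR-29b, miR-222, miR-31, miR-22 and miR-21, so only the first pair changed places. On replicate 2 of line 2 it was miR-221, miR-31, miR-222, miR-29b, miR-34a and miR-21.

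The difference of line 2 less line 1 was -1.64 for miR-21, -1.39 for miR-29b, -1.17 for miR-22, -0.94 for miR-222, -0.17 for miR-221, 0.12 for miR-31 and 0.98 for miR-34a. Line 2 was thus the lower one for 5 of 7 members, and for 32.7% of 113 microRNAs. None of the 4 members tested was called different between the lines (limma on the 9 arrays as single values, adjusted p from 0.703 to 0.941, unadjusted p from 0.17 to 0.812), and 0% of the 87 microRNAs were called in either direction. The 95% interval of the difference was -4.11 to 0.83 for miR-21 and -3.93 to 1.15 for miR-29b, which leaves room for several-fold differences, and -0.96 to 1.19 for miR-31. This test covers the spread of hybridisation only, and the spread between the feeder arrays enters it. Without feeder replicate 1 or 2 the adjusted p of miR-21 was 0.134 or 0.12, again with no member called.

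In the heterozygous cells the members stayed near the wild-type level. MiR-21 had ratios of -0.40, -0.25 and 0.49 on replicates 1, 2 and 3, and miR-31 had -0.38, -0.33 and 0.29. MiR-22 had -0.82, -0.52 and 0.34. MiR-29b had -0.57 and -0.76 on replicates 1 and 2 and no value on replicate 3. MiR-221 (0.13) and miR-222 (0.07) had a value on replicate 2 alone, and miR-34a had no heterozygous value.

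All 4 members measured on replicate 1 were below 0 and all 3 on replicate 3 were above 0. On replicate 2 the signs were mixed, with miR-21, miR-22, miR-29b and miR-31 below 0 and miR-221 and miR-222 above. The medians of all mouse probes on replicates 1, 2 and 3 were -0.18, 0.03 and 0.09. No member was called changed (limma, adjusted p from 0.739 for miR-29b to 0.997 for miR-21; unadjusted p from 0.136 to 0.883), and 0% of the 87 microRNAs were called lower or higher. The 95% intervals were -0.91 to 0.81 for miR-21, -1.11 to 0.45 for miR-22, -0.61 to 0.34 for miR-31 and -1.63 to 0.30 for miR-29b. A reduction by a factor of 2 (a log2 value of -1) thus lies outside the intervals of miR-21 and miR-31 and inside those of miR-22 and miR-29b.

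With the heterozygous cells as the baseline, which takes the wild-type reference out of the comparison, the same 4 members were lower in the homozygous knockout, with 90.8% of the 87 microRNAs called lower. The differences were -5.99 ± 0.55 (SE) for miR-21, -5.12 ± 0.50 for miR-22, -3.05 ± 0.30 for miR-31 and -1.92 ± 0.53 for miR-29b (limma, adjusted p of 6.3e-05, 8.55e-05, 9.1e-05 and 0.0167). MiR-29b lost its call when replicate 1 of line 2 was left out (-2.52, adjusted p = 0.0627) or when heterozygous replicates 1 and 2 were averaged (adjusted p = 0.0585). After centring miR-29b and miR-31 were called higher (3.50 and 2.57), while miR-22 (0.24) and miR-21 (-0.36) were not called. For each of the 6 members with a heterozygous value, every knockout array lay below every heterozygous array, as it did for 91.2% of 113 microRNAs.

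The knockout signal was then expressed as a percentage of the feeder signal, a ratio in which the wild-type reference cancels. On the deposited scale, and with the likely direction of the ratios, the percentage from the means of all arrays was 1.07% for miR-221, 0.977% for miR-31, 0.965% for miR-29b and 0.54% for miR-222. It was 0.195% for miR-22, 0.189% for miR-21 and 0.148% for miR-34a. By these means the 4 members least reduced over wild type had the highest percentages of feeder signal. Each percentage contains the knockout ratio that formed this grouping, and the feeder means differed less among members than the knockout means did. This order therefore lends the grouping no separate support.

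With each feeder array taken apart, the percentages were higher on feeder replicate 2. MiR-221 was at 0.602% of feeder replicate 1 and 1.90% of replicate 2, miR-29b at 0.497% and 1.87%, miR-222 at 0.414% and 0.704%, and miR-31 at 0.744% and 1.28%. MiR-22 was at 0.0645% and 0.589%, and miR-21 at 0.0414% and 0.868%. For miR-21 and miR-22 the choice of feeder array therefore moved the percentage by 4.39 and 3.19 on the log2 scale, and on feeder replicate 2 miR-21 stood above miR-222. MiR-34a, with feeder replicate 2 alone, stayed at 0.148%. The highest percentage was 18.0 times the lowest on feeder replicate 1 (miR-31 over miR-21, 6 members) and 12.8 times on replicate 2 (miR-221 over miR-34a, 7 members).

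By single pairs of arrays, miR-31 kept the closest range among members with both feeder values, 0.678% to 1.37%. MiR-222 ran from 0.209% to 0.977%, miR-221 from 0.346% to 2.93%, miR-29b from 0.133% to 3.03%, miR-22 from 0.043% to 0.981% and miR-21 from 0.0176% to 1.93%. By line, the percentage of the mean feeder signal was 0.335% in line 1 and 0.107% in line 2 for miR-21, and 0.938% and 1.02% for miR-31. The median of the 7 members was 0.749% in line 1 and 0.389% in line 2.

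These percentages rest on the scale of the control RNAs. After centring each array the median of the set was 58.0% in place of 0.54%. MiR-31 was then at 116%, miR-221 at 115%, miR-29b at 104%, miR-222 at 58.0%, miR-21 at 22.5%, miR-22 at 19.4% and miR-34a at 17.9%. Centring moves all values of an array alike, so differences between members measured on the same arrays are kept by it whatever the scale. With the feeder values read as log2 ratios in place of log10 the median was 4.65%.

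**Figure D4:**
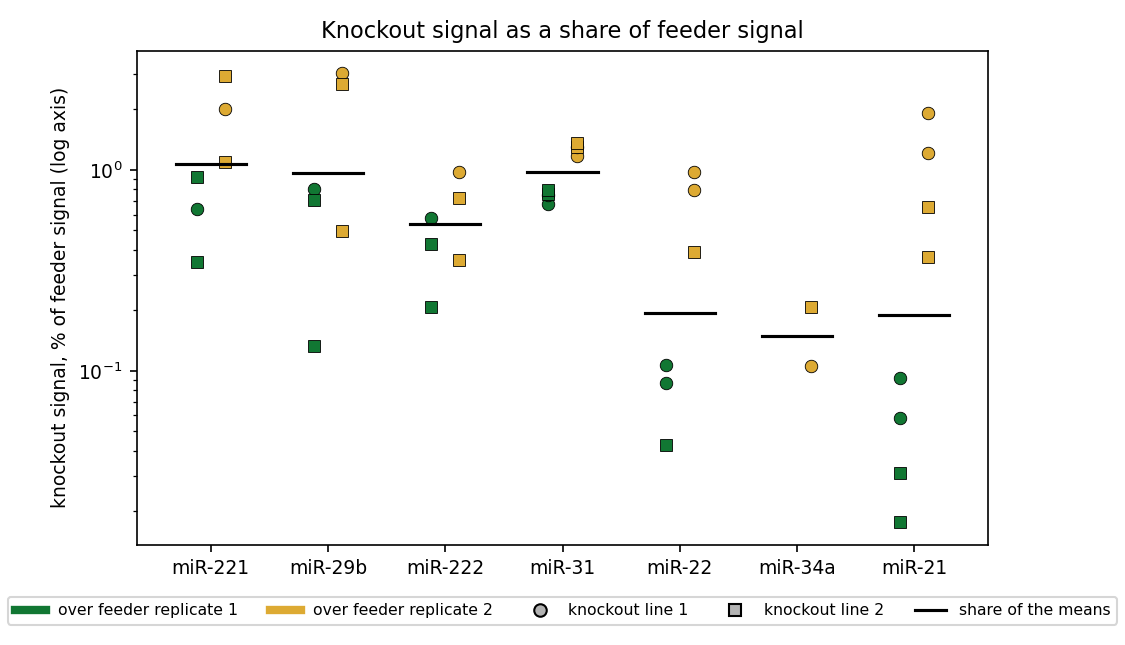
Knockout signal as a percentage of feeder signal (log axis) for each member and each pair of a knockout array and a feeder array; colours mark the feeder array, symbols the knockout line and black bars the value from the means of all arrays. MiR-31 lies between 0.678% and 1.37% and miR-21 between 0.0176% and 1.93%, on the deposited scale.

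Other feeder microRNAs had a median percentage of the same order and a wider range than the 7 members (median 0.54%, 0.148% to 1.07%). Among the 26 microRNAs outside the set that were above 2-fold on both feeder arrays and measured in both lines, the median was 0.675%, with a range from 0.111% to 17.2%. Of the 12 probes for fibroblast and mesenchymal microRNAs, those of miR-23a, miR-23b, miR-24 and miR-27a had values in both lines. All 4 were called lower in the knockout (median -5.95, limma). Of all 87 microRNAs tested 89.7% were called lower, and the median of the 87 was -5.98. The 4 had 0.231% to 0.618% of the feeder signal. MiR-145 had 1 knockout value, -2.01 in line 1, which was 1.22% of its mean feeder signal, where the 7 members ran from 0.106% to 1.56% in line 1. The 7 probes of miR-143, miR-152, miR-199a and miR-214 had no knockout value. The part of fibroblast RNA in the knockout or wild-type signal of the set was not tested. The mir-290 probes, lost in knockout and feeder alike, ran from -8.01 to -6.59 in the knockout by means over the lines, below the mean of every member. On single arrays they overlapped, as on replicate 2 of line 1, where miR-290 (-4.78) lay above miR-21 (-4.89).

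Likeness between microRNAs was measured as the root mean square difference of their log2 ratios over the arrays that both had. Within the set, miR-21 and miR-22 were the closest pair (0.51 over 8 arrays), and miR-221 and miR-222 differed by 0.92 over 6 arrays. MiR-29b lay nearer to miR-222 (0.73, 6 arrays) and miR-221 (0.85, 6 arrays) than to miR-21 (2.44, 7 arrays). Outside the set and over at least 7 arrays, the nearest to miR-21 were miR-26a (0.84, 9 arrays) and miR-101 (0.88, 8 arrays), and the nearest to miR-22 were miR-26a (0.81, 8 arrays) and miR-24 (0.87, 8 arrays).

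MiR-26a had a knockout mean of -5.56, near the median of -5.58 over the 113 microRNAs with values in both lines. Its feeder values were 3.53 and 1.38. The gap of 2.15 between them was smaller than that of miR-22 (3.19) or miR-21 (4.39). The nearest to miR-31 were miR-335 (1.04, 9 arrays; knockout mean -3.87) and miR-361 (1.44, 8 arrays). For miR-29b no microRNA came nearer than miR-125b (1.38, 7 arrays) and let-7e (1.44, 7 arrays). To the median of the set on each array, miR-125a (1.34), miR-335 (1.36), miR-134 (1.37), miR-24 (1.40) and miR-125b (1.51) came nearest.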

How the data were processed

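The authors hybridised gel-purified small RNA with the NCode labelling system and normalised ratios on added control RNAs, per the labels' protocols and the series text. The deposited values were log10 ratios. The base was read from knockout line 1 replicate 2, where 90 of 90 low values (ratios under 0.05) were logs of ratios with 4 decimals (3.84% by chance). The same check did not show the base on the other arrays (1 of 76, 2 of 68 and 4 of 75 on the other knockout arrays, 0 of 12 and 0 of 17 on the feeder arrays), where it was assumed. The lowest deposited values were -2.42 and -2.36 on the feeder arrays and -3.16 to -2.28 on the knockout arrays. Spreadsheet errors in the deposited columns, 2 on knockout line 1 replicate 1 and 1 on feeder replicate 1, were treated as missing. Values were multiplied by 3.3219 to give log2. Any further scaling or centring by the authors is unknown. Spot intensities were not used here, so how far a signal lay over background is unknown, and precision is limited by the number of arrays. The arrays held 84 to 133 values of 206 probes.

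limma 3.58.1 in R 4.3.3 (lmFit, eBayes) was fitted to 3 heterozygous arrays, 1 mean per knockout line and the feeder mean, over 87 mouse microRNAs that had at least 2 heterozygous values, 1 value in each line and 1 feeder value. The Benjamini-Hochberg method was used for adjusted p (threshold 0.05). Ratios were tested against 0, so the spread of wild type does not enter, and p-values measure the spread between these samples, which may be technical. The spread was pooled over the heterozygous arrays and the knockout lines, so knockout p-values do not measure the spread between lines alone. The fit was tested on simulated data with few changed probes and no added difference between lines. Most probes change in the real data, so that test does not cover them. The numbers of replicates 1 and 2 go with dye orientation, and the difference between them correlated across groups with r from 0.04 to 0.42. Members and lists were chosen with earlier results of these data known. Named are all members, their nearest microRNAs and the listed fibroblast and mir-290 microRNAs.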

Additional observations from a re-analysis of the deposited data

How the results depend on the processing

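Most results for the 4 tested members kept their direction and their side of the threshold. The scale mattered most. With each array centred on its median probe, 2 members were called in the knockout over wild type and 2 over heterozygous cells, all higher in place of lower. The median of the tested members over wild type turned from -4.32 to 1.19, miR-29b to 2.92 and miR-31 to 2.46. Over heterozygous cells miR-22 turned to 0.24, miR-29b to 3.50 and miR-31 to 2.57, and the median percentage of feeder signal was 58.0%. Of all 87 microRNAs 33 were then called lower and 25 higher over wild type, in place of 78 and 2, and 27 and 23 over heterozygous cells, in place of 79 and 2. Without the filter 7 members were called over wild type (median -3.19), where 100 of 113 microRNAs were called lower. With probes complete on all 9 arrays 2 were called over wild type and 2 over heterozygous cells, the 2 then tested. In both of these comparisons 55 of 58 microRNAs were called lower. Leaving out 1 array in turn gave 2 to 4 members called over heterozygous cells and 3 to 4 over wild type, with medians from -5.53 to -3.19. Most of all microRNAs tested were called lower in each of these fits as well. Fewer members could be tested on some of these fits, and without replicate 1 of line 2 miR-29b was tested over heterozygous cells and lost its call (adjusted p = 0.0627). Between the lines, 0 of 87 microRNAs were called, against 1 lower and 2 higher without feeder replicate 1 or without the filter, and 1 and 1 without feeder replicate 2 or without replicate 1 of line 2. The feeder median of 3.55 then ran from 3.16 to 5.11, and the percentage from 0.185% (without replicate 2 of line 1, 3 members left) to 0.868% (without feeder replicate 1). With feeder values read as log2 the feeder median was 1.07 and the percentage 4.65%. With the replicate number as a replicate block on the 9 arrays, 4 members were called over wild type, 4 over heterozygous cells, 0 in heterozygous cells and 0 between lines, as without it. Of all 87 microRNAs 77 were called lower over wild type and 76 over heterozygous cells in that fit.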
